A study of Mus musculus with 8 samples.

Results

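This account covers 34 genes of the mouse peroxisome, chosen by name as genes of peroxisomal fatty acid handling and of peroxisome assembly. They comprise 21 genes for enzymes and transporters of the organelle and 13 Pex genes, which encode peroxins, the proteins that build peroxisomes and import their contents. All 34 had a value, among 14040 genes with a value in any sample. RNA was sequenced from intestinal organoids, which are epithelial structures grown in Matrigel from intestinal crypts in IntestiCult medium. There were 4 samples from wild-type littermates (WT) and 4 from mice with global overexpression of MG53, a tripartite motif protein encoded by Trim72 (MG53-TG). The labels give the genotypes as wt and mg53-tg. The study's text describes organoid RNA sequencing with 4 samples a group in 1 place as from MG53-TG and WT mice and in another as from mice that also carried the Lgr5-EGFP-IRES-CreERT2 knock-in allele in both groups, and whether the samples here carried that allele was not settled. The promoter of the transgene and the age and sex of the animals are not given in the sources used here. Nothing in the labels says that samples came from separate animals or cultures, so the p-values measure only the spread between these samples, which may be technical.

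Values are in FPKM, fragment numbers scaled by transcript length and by the size of the library, as deposited for transcript start and end events. Length is taken into account, but a gene's level also depends on which of its events were listed, so levels of different genes compare only roughly. The end events of Crot, Slc25a17 and Acot4 were each at most 0.587, 0.41 and 0.161 FPKM in any sample. Their main starts were at 16.0 to 72.8, 17.4 to 35.7 and 1.08 to 8.61 FPKM. Fold changes and their standard errors (SE) are on the scale of log2(FPKM + 1), which understates the change of genes with low levels, and adjusted p-values come from limma over the 10958 genes whose mean reached 0.5 FPKM. A gene is called higher or lower at an adjusted p of at most 0.05. The depth behind the values is unknown, because whole reads could not be recovered from them.

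Trim72 was not listed in the 4 WT samples and was set to 0 there, and its level in the MG53-TG samples was 16.4, 27.4, 31.9 and 36.5 FPKM. Across the transcriptome 4862 genes (44.4%) were called, 1699 of them higher (15.5%) and 3163 lower (28.9%) in MG53-TG, and over all genes the log2 fold change had a median of -0.17. Scaling the samples by the median of ratios shifted that median up by 0.16 and quantile normalization by 0.11. Cell type markers moved along with these groups. The summed level of 10 enterocyte markers ran from 927 to 1107 FPKM in WT and from 11751 to 12764 FPKM in MG53-TG, with 10 of 10 called higher. Of the 6 stem cell and 6 proliferation markers, 5 each were called lower, as were 5 of 6 goblet markers and 5 of 5 Paneth markers tested. Of 5 enteroendocrine markers tested, 3 were called higher (Chga, Chgb and Tph1) and 2 neither (Cck and Gcg, at log2 fold changes of -0.007 and -0.49). Of 3 mesenchyme markers tested 2 were called higher, Col1a2 and Col3a1, at a summed mesenchyme level of at most 5.10 FPKM in any sample. Both were not listed in WT and set to 0 there, and were treated as missing in MG53-TG sample 1. As a check of the labelled tissue, 7 epithelial markers summed to 2011 to 2331 FPKM in WT and 1671 to 2168 FPKM in MG53-TG, of which 4 were called lower (Cdh1, Krt8, Krt18 and Cdx2), 1 higher (Vil1) and 2 neither, while 0 of 6 tuft and 0 of 6 immune markers reached the filter. In bulk samples of this kind, fewer cells of a type and less RNA per cell cannot be told apart, and the part of the cell type markers in the results below was not tested.

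Peroxisomes are small organelles bounded by a single membrane. They shorten fatty acids that mitochondria handle poorly, such as very long-chain and branched-chain acids and bile acid precursors, and the first oxidation step passes electrons directly to oxygen and so makes hydrogen peroxide, which catalase removes. They also carry out alpha-oxidation of phytanic acid and the opening steps of ether lipid synthesis. Their enzymes are made in the cytosol and imported by the peroxins. In the intestine, absorptive enterocytes handle dietary fat, and many genes of peroxisomal fatty acid oxidation are known targets of the PPAR family of nuclear receptors in liver and gut.

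Most enzyme genes and fewer of the peroxin genes were called. Of the 21 enzyme and transporter genes, 17 (81.0%) were called higher in MG53-TG, where 15.5% of all genes were, and 3 (14.3%) were called lower, where 28.9% of all genes were. With end events alone 12 of the 21 could be tested, of which 10 were called higher and 1 lower. Of the 13 Pex genes, 4 (30.8%) were called higher and 0 lower by limma. That count was 7 under both median-of-ratios scaling and quantile normalization, with medians of 0.29 and 0.28. Under these, in that order, 20.2% and 18.8% of all genes were called higher, with medians of -0.008 and -0.052. The Pex count was 2 to 5 when 1 sample was left out. The median log2 fold change was 1.07 for the enzymes and transporters and 0.11 for the Pex genes, beside -0.17 for all genes. The groups did not overlap for 16 of the 21 enzyme genes on the higher side and for 3 of the 13 Pex genes, where 15.7% of all genes did the same. These counts describe the classes, and the difference between them was not tested. The 21 enzymes and transporters include 17 of fatty acid oxidation and of peroxide and epoxide removal, of which 16 were called higher and 0 lower by limma, with a median of 1.29. The members left out, of ether lipid synthesis and membrane transport, hold all 3 called lower, so the 0 follows from how this subset was drawn. Of the 17 enzyme calls, those of Ech1 and Decr2 rest on starts inside the gene. With the start at the annotated first exon alone for both, an alternative chosen after seeing the data, 15 of 21 were called higher and the median was 0.72. The call of Acot4 also rests on a start inside its gene, 556 bases past the annotated start, where no start was listed.

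**Figure D1:**
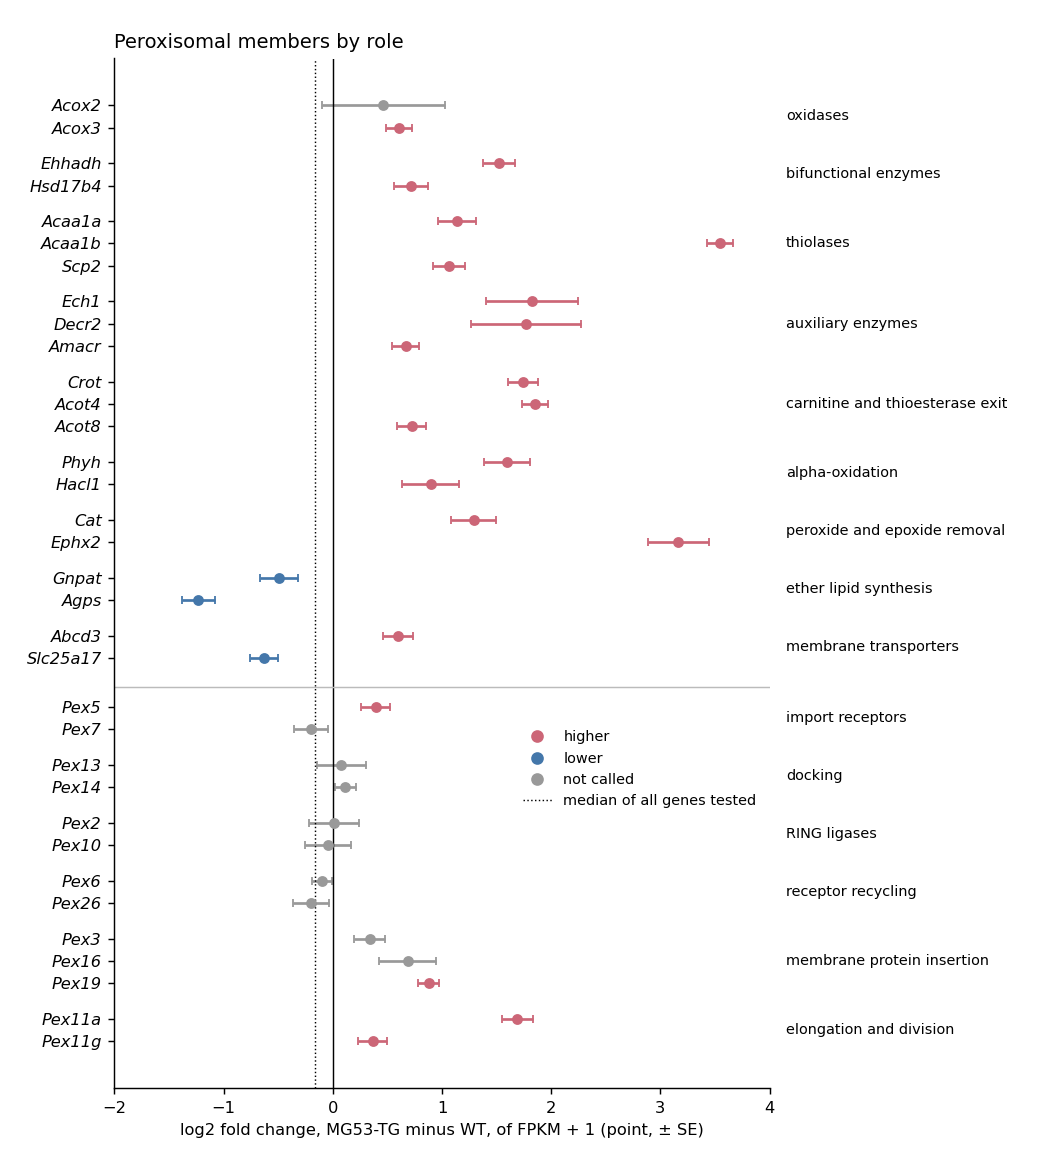
Log2 fold change (MG53-TG minus WT, of FPKM + 1) of the 34 genes, with its SE as a horizontal bar, grouped by role, with enzymes and transporters above the grey line and Pex genes below it. Red points were called higher, blue points lower and grey points neither, and the dotted line is the median of all genes tested, at -0.17.

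Averaged over the genes of a class, log2(FPKM + 1) of the 21 enzymes and transporters ranged from 3.74 to 3.801 in WT and from 4.62 to 5.08 in MG53-TG. For the 13 Pex genes the same average ranged from 3.17 to 3.27 in WT and from 3.45 to 3.56 in MG53-TG. That average includes Pex11a and Pex19, which had the largest log2 fold changes of the class. Outside these 2, 2 of 11 Pex genes were called higher (18.2%, beside 15.5% of all genes), with a median of 0.08. This subset was drawn by the values. The excess of the enzymes over the Pex genes was 0.54 to 0.59 in WT and 1.06, 1.30, 1.55 and 1.43 in MG53-TG samples 1 to 4. MG53-TG samples 3 and 4 thus stood above samples 1 and 2 in this excess. They also had the higher enterocyte sums of the group, at 12714 and 12764 FPKM against 12080 and 11751 FPKM, the lower stem cell sums, at 89.1 and 56.1 FPKM against 276 and 292 FPKM, the lower proliferation sums, at 163 and 119.7 FPKM against 305 and 307 FPKM, the lower Paneth sums, at 298 and 262 FPKM against 392 and 459 FPKM, and the higher goblet sums, at 281 and 317 FPKM against 144 and 198 FPKM. The part of these differences between samples was not tested.

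**Figure D2:**
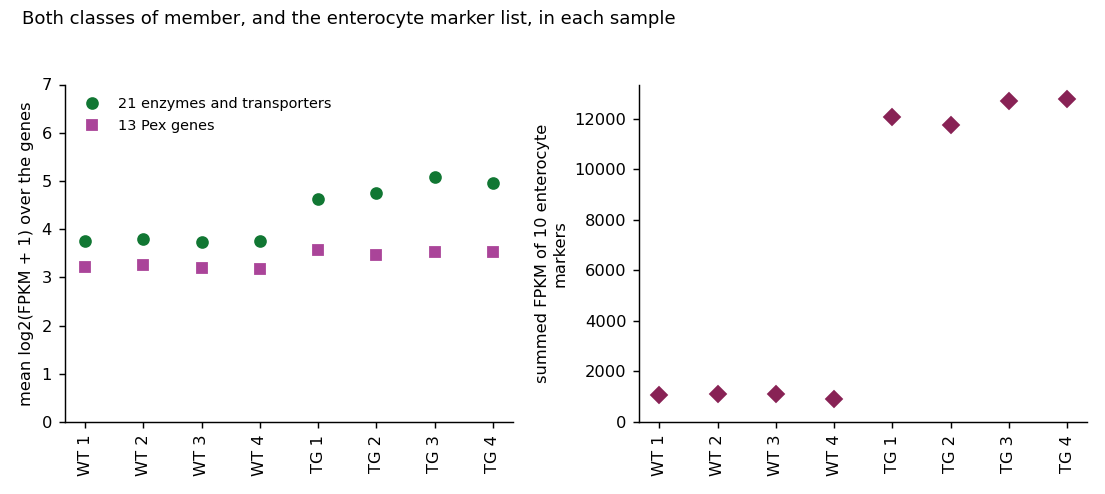
Left, mean log2(FPKM + 1) over the 21 enzymes and transporters (circles) and the 13 Pex genes (squares) in each sample. Right, summed level of 10 enterocyte markers, in FPKM. The averages of both classes were higher in all 4 MG53-TG samples (TG) than in the WT samples. The Pex average includes Pex11a and Pex19, the largest changes of its class. The marker sum stood at 927 to 1107 FPKM in WT and 11751 to 12764 FPKM in MG53-TG.

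Promoter windows are shown for Acaa1b, which had the largest log2 fold change of the enzymes, for Pex11a, which had the largest of the Pex genes, and for Acot4 and Cat, which were added after the search because their windows hold the closest match to the motif searched. Each window runs from 250 bases before to 50 bases after a RefSeq start site on GRCm38.p6, in the direction of the gene. Acaa1b is at chr9:119157044-119157343 (minus strand), Pex11a at chr7:79743082-79743381 (minus), Acot4 at chr12:84038129-84038428 (plus) and Cat at chr2:103485104-103485403 (minus). Capitals mark the best match on either strand to a direct repeat of 13 bases, AGGTCA followed after 1 free base by a second AGGTCA, the pattern bound by PPAR and retinoid X receptor pairs in textbook descriptions.
Acaa1b: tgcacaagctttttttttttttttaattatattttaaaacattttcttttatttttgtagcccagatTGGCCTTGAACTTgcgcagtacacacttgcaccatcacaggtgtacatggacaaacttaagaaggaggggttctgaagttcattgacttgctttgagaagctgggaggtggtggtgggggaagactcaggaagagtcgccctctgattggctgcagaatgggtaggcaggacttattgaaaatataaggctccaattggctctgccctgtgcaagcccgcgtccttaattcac
Pex11a: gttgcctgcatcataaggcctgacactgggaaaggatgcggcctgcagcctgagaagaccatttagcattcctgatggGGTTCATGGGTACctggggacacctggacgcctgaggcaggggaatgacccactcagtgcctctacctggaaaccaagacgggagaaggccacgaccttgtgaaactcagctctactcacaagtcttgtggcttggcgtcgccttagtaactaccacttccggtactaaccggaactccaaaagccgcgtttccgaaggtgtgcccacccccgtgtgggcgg
Acot4: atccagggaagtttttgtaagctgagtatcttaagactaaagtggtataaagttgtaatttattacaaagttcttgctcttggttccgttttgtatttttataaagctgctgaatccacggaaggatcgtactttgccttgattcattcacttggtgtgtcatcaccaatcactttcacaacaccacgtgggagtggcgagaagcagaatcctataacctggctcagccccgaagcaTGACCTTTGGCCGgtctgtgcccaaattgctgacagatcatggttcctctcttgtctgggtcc
Cat: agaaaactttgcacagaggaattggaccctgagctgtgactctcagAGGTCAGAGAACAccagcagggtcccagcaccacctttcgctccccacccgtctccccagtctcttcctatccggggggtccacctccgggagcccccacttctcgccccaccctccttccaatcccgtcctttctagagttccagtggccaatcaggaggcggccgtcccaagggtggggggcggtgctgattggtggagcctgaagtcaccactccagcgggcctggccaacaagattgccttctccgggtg

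The capitals differ from the repeat at 4 of its letters in Acaa1b, 5 in Pex11a and 2 in both Acot4 and Cat. A match with at most 2 mismatches was found in 2 of 18 enzyme windows, in 0 of 11 Pex windows and in 3.86% of 32817 windows of all genes. With at most 1 mismatch it was 0, 0 and 0.55%, and with at most 3 it was 5, 1 and 24.6%. These matches describe the letters of the windows, and binding was not tested. The RefSeq start of Acot4 lies 556 bases from the start event that carries most of its level. The Acot4 match begins 13 bases before the start on the strand opposite to the gene, and the Cat match 204 bases before it on the gene's own strand. The single repeat unit AGGTCA was searched exact on either strand, including those inside the longer motif. It lay in the windows of Scp2, Acot4, Phyh, Cat and Pex11g, which is 5 of the 29 matched, beside 16.3% of all windows. All 5 were among the 17 called higher, though the call of Pex11g was lost under 12 of 20 alternatives. The difference between windows by call was not tested. The sequence GGGCGG was found in 13 of 18 enzyme windows and 8 of 11 Pex windows, beside 35.6% of all windows. For CCAAT these were 10, 2 and 37.4%, and for TATAAA 1, 2 and 13.6%. The median share of G and C letters was 57.7% in enzyme windows, 57.3% in Pex windows and 52.7% in all windows. Its part in the GGGCGG counts was not tested. Windows were matched by symbol for 29 of the 34 genes. Ephx2, Hsd17b4, Amacr, Pex2 and Pex19 were not matched.

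Oxidases open the pathway by introducing a double bond into the acyl chain. Acox3, an oxidase for branched-chain acyl groups, was at 3.96, 4.56, 4.07 and 4.88 FPKM in WT samples 1 to 4 and at 5.95, 7.82, 7.35 and 7.72 FPKM in MG53-TG, in the same order of sample numbers as throughout. All MG53-TG samples were above all WT samples, and the log2 fold change was 0.61 (SE 0.12, limma adjusted p = 0.00395). Acox2, which acts on bile acid intermediates and branched chains, was at 4.08, 4.18, 0.167 and 3.23 FPKM in WT and at 2.86, 6.02, 6.93 and 1.19 FPKM in MG53-TG. The groups overlapped and no change was called (log2 fold change 0.46, SE 0.56, limma adjusted p = 0.527). The main start of Acox2 was not listed in WT sample 3, and without that sample the difference was -0.05.

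The bifunctional enzymes hydrate and then dehydrogenate the chain. Ehhadh, the L-bifunctional enzyme, was nearly constant in WT at 16.2, 16.5, 15.9 and 16.2 FPKM and stood at 40.2, 40.7, 56.4 and 59.8 FPKM in MG53-TG. Its log2 fold change was 1.52 (SE 0.14, limma adjusted p = 7.78e-05), with no overlap. Hsd17b4, the D-bifunctional enzyme for bile acid precursors and branched and very long chains, was at 32.0, 37.0, 38.4 and 39.2 FPKM in WT and at 48.0, 53.5, 76.8 and 68.5 FPKM in MG53-TG, a smaller change of 0.72 (SE 0.15, limma adjusted p = 0.00608), again without overlap. Ehhadh made up 30.8% ± 2.05 (SD, n = 4) of the summed level of both in WT and 44.4% ± 2.004 (SD, n = 4) in MG53-TG, and Hsd17b4 was the more abundant in all 8 samples.

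Thiolases release the shortened chain. Acaa1b (chr9:119148023-119157093, minus strand) had the largest log2 fold change of the list. It was at 3.56, 3.66, 3.68 and 3.35 FPKM in WT and at 50.2, 44.0, 63.0 and 54.2 FPKM in MG53-TG, means of 3.56 ± 0.152 and 52.8 ± 7.95 FPKM (SD, n = 4) and a ratio of 14.8. The lowest MG53-TG sample was far above the highest WT sample, and the log2 fold change was 3.55 (SE 0.12, limma adjusted p = 4.00e-07). Acaa1a (chr9:119339676-119350299, plus strand), its paralog, was at 13.4, 16.5, 15.8 and 22.2 FPKM in WT and at 35.6, 30.7, 45.9 and 41.1 FPKM in MG53-TG, a ratio of 2.26 (log2 fold change 1.14, SE 0.17, limma adjusted p = 0.00113). By their starts, Acaa1b held 13.1% to 21.1% of their summed level in WT and 56.9% to 58.9% in MG53-TG. Their coding sequences are 96.5% identical over 1275 aligned bases, with an identical run of 327 bases, and 30.5% of the 50-base stretches of Acaa1b transcripts also occur in Acaa1a transcripts, so the division of reads between them is uncertain. Which paralog led in WT depended on the event used. The end of Acaa1a was listed at only 0.0972 to 1.13 FPKM, so by ends Acaa1b held 92.3% to 97.4% in WT and 97.8% to 99.2% in MG53-TG, a difference of 3.54 points in place of 40.2. Scp2, whose longer product is a thiolase for branched chains and whose shorter product is a sterol carrier, was at 43.1, 49.7, 47.9 and 41.8 FPKM in WT and at 77.9, 84.6, 113 and 116 FPKM in MG53-TG (log2 fold change 1.07, SE 0.15, limma adjusted p = 0.00062), and its end event does not separate the products.

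**Figure D3:**
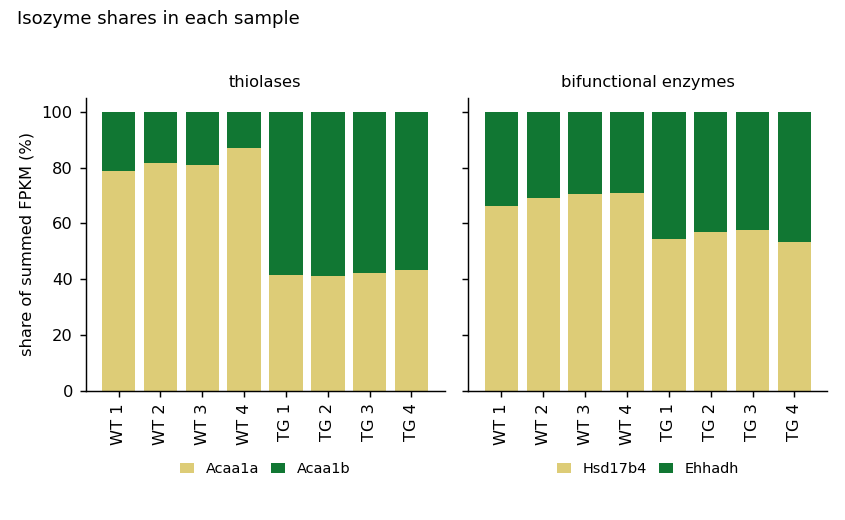
Share of the summed FPKM (start events) of the thiolase pair and of the bifunctional enzymes held by each gene in each sample, in percent, with WT 1 to 4 on the left and MG53-TG samples (TG) on the right of each panel. Acaa1b held 13.1% to 21.1% in WT and 56.9% to 58.9% in MG53-TG.

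The auxiliary enzymes reshape chains that the main cycle cannot process directly. Amacr, the racemase for branched chains, was at 4.30 to 5.06 FPKM in WT and 6.77 to 9.71 FPKM in MG53-TG, without overlap (log2 fold change 0.67, SE 0.12, limma adjusted p = 0.00309). Ech1, an isomerase for dienoyl-CoA that is also found in mitochondria, summed to 50.8, 37.7, 71.7 and 118 FPKM in WT and 115, 363, 293 and 218 FPKM in MG53-TG (log2 fold change 1.82, SE 0.42, limma adjusted p = 0.00798), with overlapping groups. The deposited tables place Ech1 under Lgals4, the next gene downstream on the same strand, which encodes galectin 4.

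The rise of Ech1 came from a start inside the gene at chr7:28826204-28826273. It was at 0.0704, 0.043, 12.7 and 96.2 FPKM in WT and at 77.5, 325, 247 and 151 FPKM in MG53-TG. The start at the annotated first exon, chr7:28825217-28825412, was at 50.2, 37.4, 58.7 and 21.2 FPKM in WT and at 37.2, 38.0, 45.2 and 66.0 FPKM in MG53-TG. Those groups overlapped, and with this start alone Ech1 was not called (log2 fold change 0.21, limma adjusted p = 0.616). The end of Lgals4 rose from 96.8 to 168 FPKM in WT to 316 to 472 FPKM in MG53-TG, and its part in the values of Ech1 was not tested.

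Decr2, the peroxisomal dienoyl-CoA reductase, was also listed under a neighbour, Nme4. Its starts summed to 9.63, 8.89, 8.34 and 1.14 FPKM in WT and to 20.6, 13.7, 29.4 and 28.5 FPKM in MG53-TG, without overlap (log2 fold change 1.77, SE 0.51, limma adjusted p = 0.0212). Without MG53-TG sample 3 or sample 4 the limma adjusted p was 0.0589 or 0.0537. The difference lay at a start within the gene, chr17:26084011-26084410, which was at 1.71, 0.143, 0.122 and 0.114 FPKM in WT and at 12.8, 4.82, 17.9 and 18.8 FPKM in MG53-TG. The start at the annotated first exon was at 7.91, 8.75, 8.21 and 1.03 FPKM in WT and at 7.72, 8.51, 11.5 and 9.69 FPKM in MG53-TG, with overlap (log2 fold change 0.69, limma adjusted p = 0.262). The low start value of WT sample 4 was not seen at an exon further along, chr17:26083576-26083680, whose inclusion event was at 9.63, 8.89, 8.34 and 7.81 FPKM in WT and at 20.6, 14.3, 29.4 and 28.3 FPKM in MG53-TG. The groups did not overlap for transcripts carrying that exon.

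Shortened chains leave the organelle as carnitine esters or free acids. Crot, carnitine octanoyltransferase, was at 16.0, 17.5, 17.4 and 18.04 FPKM in WT and at 47.7, 55.3, 67.6 and 72.8 FPKM in MG53-TG, with no overlap and a small spread in WT (log2 fold change 1.74, SE 0.14, limma adjusted p = 3.03e-05). Acot4, a thioesterase for short and dicarboxylic acyl-CoA, was low in WT at 1.53, 1.38, 1.51 and 1.08 FPKM and stood at 7.56, 7.41, 6.77 and 8.61 FPKM in MG53-TG. Its means had a ratio of 5.51, the largest after Acaa1b and Ephx2 (log2 fold change 1.85, SE 0.12, limma adjusted p = 1.02e-05). Acot4 was listed under its paralog Acot3, and the coding sequences of the pair are 74.2% identical. Acot3's own value was 1.28 FPKM in MG53-TG sample 3 and was set to 0 in the other 7 samples, where it was not listed. Acot8, a thioesterase with a broad range of substrates, was at 4.54 to 6.02 FPKM in WT and 7.62 to 11.02 FPKM in MG53-TG (log2 fold change 0.72, SE 0.13, limma adjusted p = 0.00291).

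Alpha-oxidation removes a single carbon from phytanic acid, whose methyl branch blocks the usual cycle. Phyh, the hydroxylase that starts it, was at 35.1, 26.5, 40.2 and 35.5 FPKM in WT and at 81.3, 81.0, 129.6 and 140.0 FPKM in MG53-TG, without overlap (log2 fold change 1.595, SE 0.21, limma adjusted p = 0.00055). Hacl1, the lyase that follows, was low, at 0.836, 1.37, 1.08 and 1.09 FPKM in WT and 1.70, 1.85, 4.64 and 4.26 FPKM in MG53-TG (log2 fold change 0.90, SE 0.26, limma adjusted p = 0.0223). That call was lost without WT sample 1, WT sample 4, MG53-TG sample 3 or MG53-TG sample 4, with limma adjusted p of 0.0592, 0.0507, 0.0545 and 0.0559, and with end events alone, where the log2 fold change was 0.35 and the adjusted p 0.508. MG53-TG samples 3 and 4 were the high ones for both genes. For Hacl1, 30.1% of its 50-base stretches occur in another gene's transcripts, most of them in Gm49387, and for Scp2 29.7% do, so their levels are uncertain to that extent.

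Of the enzymes that remove reactive products, Ephx2, the soluble epoxide hydrolase, changed most. It was at 7.74, 8.93, 8.79 and 9.08 FPKM in WT and at 60.4, 55.7, 124 and 126 FPKM in MG53-TG, means of 8.64 ± 0.606 and 91.6 ± 38.9 FPKM (SD, n = 4) and a ratio of 10.6 (log2 fold change 3.17, SE 0.28, limma adjusted p = 5.15e-05). Cat, catalase, was at 56.0, 53.0, 50.1 and 55.4 FPKM in WT and at 101, 98.7, 174 and 178 FPKM in MG53-TG (log2 fold change 1.29, SE 0.21, limma adjusted p = 0.00146). The groups did not overlap for either gene, and MG53-TG samples 3 and 4 were well above samples 1 and 2 for both. That order among the MG53-TG samples held for 16 of the 21 members called higher (76.2%) and for 879 of the 1699 genes called higher in all (51.7%). On the log2 scale, MG53-TG samples 1 and 2 correlated at r = 0.975 and samples 3 and 4 at 0.973. Between these 2 sets r was 0.939 to 0.954, while WT samples correlated at 0.9699 to 0.974. The MG53-TG samples thus fell into 2 sets, whereas the limma fit took them as 4 separate samples. What set them apart was not tested.

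**Figure D4:**
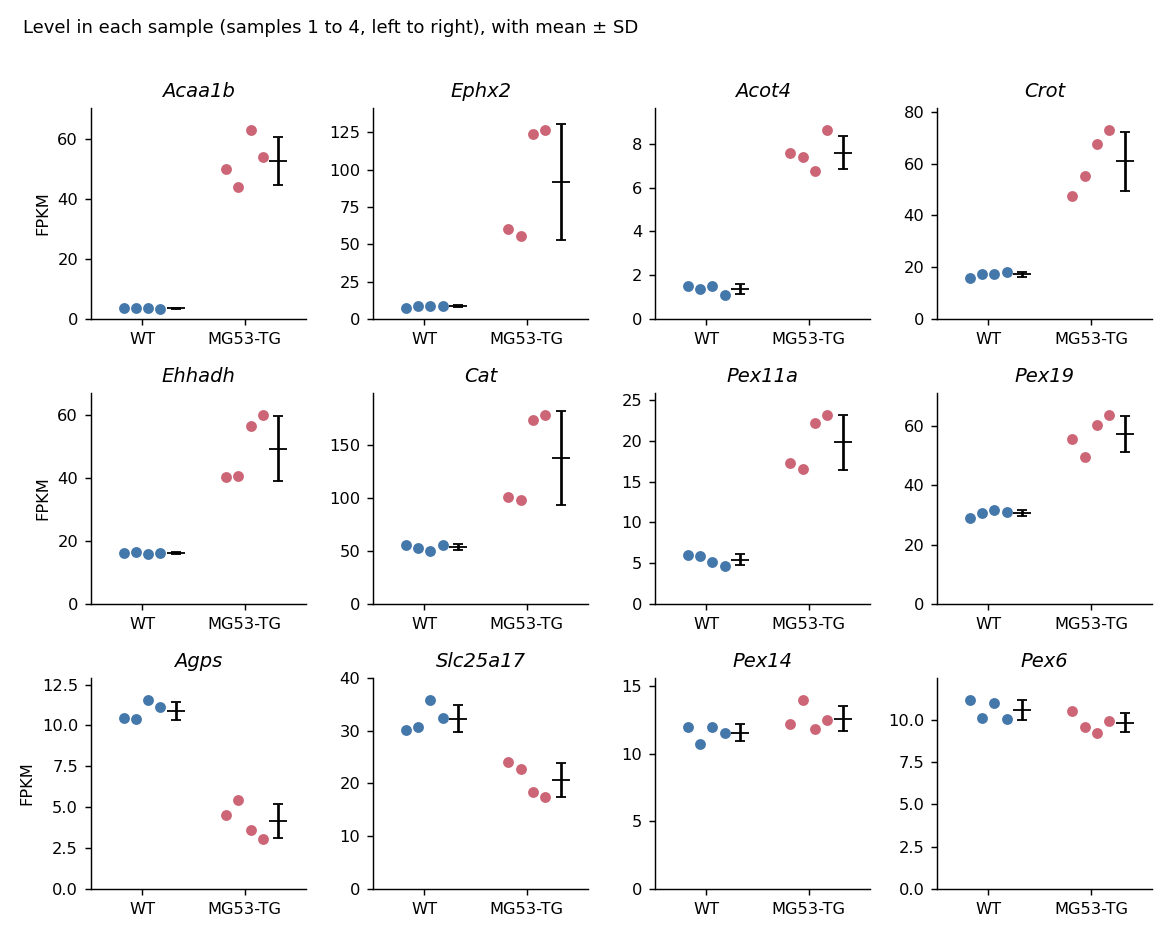
Level in FPKM of 12 genes in each sample, with WT in blue, MG53-TG in red and the mean ± SD (n = 4) in black beside each group. Acaa1b, Ephx2, Acot4, Crot, Ehhadh, Cat, Pex11a and Pex19 were higher in MG53-TG with no overlap, Agps and Slc25a17 were lower with no overlap, and the groups overlapped for Pex14 and Pex6.

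Both members of ether lipid synthesis were called lower, as were 28.9% of all genes, and the call of 1 of them, Gnpat, was lost under 10 of 19 alternatives. Agps, which forms the ether bond, was at 10.5, 10.4, 11.5 and 11.1 FPKM in WT and at 4.53, 5.42, 3.59 and 3.03 FPKM in MG53-TG. Every MG53-TG sample was below every WT sample, and the gene fell by 1.23 on the log2 scale (SE 0.15, limma adjusted p = 0.000363). Gnpat, the acyltransferase of the first step, was at 26.1, 34.2, 21.2 and 21.5 FPKM in WT and at 20.6, 15.8, 15.4 and 19.4 FPKM in MG53-TG, a log2 fold change of -0.49 (SE 0.17, limma adjusted p = 0.0433) with groups that just failed to overlap. The call of Gnpat ended under both scalings of the samples, at limma adjusted p of 0.189 and 0.130, under the replicate block at 0.0656, and without WT sample 1 or 2 or MG53-TG sample 2, 3 or 4, at 0.0916, 0.0926, 0.0886, 0.109 and 0.0574. Of the fatty acyl-CoA reductases that supply the alcohol for this pathway, which belong to a list of other peroxisomal genes, Far2 was called lower (log2 fold change -1.67, SE 0.31, limma adjusted p = 0.00282). Far1, named after its values were seen, was at 6.33, 6.77, 8.29 and 7.18 FPKM in WT and at 5.69, 5.98, 1.72 and 1.82 FPKM in MG53-TG and was not called (limma adjusted p = 0.0524).

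The membrane transporters were divided. Abcd3, a transporter for branched-chain acyl-CoA and bile acid precursors, was at 51.7, 54.5, 58.4 and 52.1 FPKM in WT and at 68.2, 71.2, 96.9 and 97.6 FPKM in MG53-TG (log2 fold change 0.60, SE 0.14, limma adjusted p = 0.00782). Slc25a17, a carrier for coenzyme A and other nucleotide cofactors, was at 30.1, 30.8, 35.8 and 32.4 FPKM in WT and at 24.1, 22.7, 18.4 and 17.4 FPKM in MG53-TG (log2 fold change -0.63, SE 0.12, limma adjusted p = 0.00413). Neither pair of groups overlapped.

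Of the 5 Pex genes for membrane assembly and division, 3 were called higher, where 15.5% of all genes were, and 1 of the 3, Pex11g, only just. Pex11a (chr7:79735957-79743131, minus strand), an inducible factor of peroxisome elongation, was at 6.04, 5.93, 5.10 and 4.62 FPKM in WT and at 17.3, 16.6, 22.2 and 23.1 FPKM in MG53-TG. The groups lay far apart, with a ratio of the means of 3.66 (log2 fold change 1.69, SE 0.14, limma adjusted p = 4.34e-05). Pex11g, of the same family, was at 2.04, 2.31, 2.80 and 2.40 FPKM in WT and at 2.97, 3.02, 4.21 and 3.33 FPKM in MG53-TG, just past the threshold (log2 fold change 0.37, SE 0.13, limma adjusted p = 0.04996). Its call was lost under 12 of 20 alternatives. These included leaving out WT sample 1, 2 or 4 or MG53-TG sample 3 or 4, at limma adjusted p of 0.124, 0.103, 0.0936, 0.117 and 0.0837, and 7 changes of filter, pseudocount, block, event choice or handling of absent values, at 0.0512 to 0.0613. Also, 39.2% of its 50-base stretches are shared with the overlapping locus Gm44775.

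Pex19, the chaperone and import receptor for membrane proteins of the organelle, was the most abundant Pex member, at 29.1, 30.7, 31.6 and 30.9 FPKM in WT and 55.6, 49.6, 60.3 and 63.5 FPKM in MG53-TG. It rose without overlap (log2 fold change 0.88, SE 0.10, limma adjusted p = 0.000187). Pex3, its docking partner in the membrane, was at 8.63, 8.31, 7.78 and 6.38 FPKM in WT and at 9.92, 8.002, 10.99 and 11.6 FPKM in MG53-TG and was not called (log2 fold change 0.34, SE 0.14, limma adjusted p = 0.0794). Pex16, which recruits Pex3, was at 8.41, 7.10, 4.70 and 12.4 FPKM in WT and at 14.2, 9.31, 14.7 and 14.9 FPKM in MG53-TG and was not called either (log2 fold change 0.69, SE 0.26, limma adjusted p = 0.0579). Both passed under the median-of-ratios scaling (limma adjusted p = 0.0399 and 0.0345) and under quantile normalization (0.0422 and 0.0365). Without MG53-TG sample 2 they also passed, at 0.0257 and 0.0318, and Pex16 passed without WT sample 4 at 0.0195.

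Of the 8 Pex genes for import of matrix enzymes, 1 was called higher and 0 lower by limma, beside 15.5% and 28.9% of all genes. Pex5, the receptor for the C-terminal targeting signal, was at 13.8, 10.9, 10.7 and 11.96 FPKM in WT and at 19.2, 16.1, 13.1 and 15.3 FPKM in MG53-TG, with overlap (log2 fold change 0.39, SE 0.13, limma adjusted p = 0.0411). Its call held without WT sample 1 or MG53-TG sample 3 and was lost without any 1 of the other 6 samples (WT samples 2, 3 and 4 and MG53-TG samples 1, 2 and 4), at limma adjusted p of 0.0998, 0.0978, 0.0792, 0.0864, 0.0695 and 0.0662. It was also lost with sample weights (0.0512) and with start events alone (0.0510). The other 7 were not called. Pex7, the receptor for the N-terminal signal, had means of 6.36 ± 1.29 and 5.35 ± 0.722 FPKM (SD, n = 4) in WT and MG53-TG (log2 fold change -0.20, SE 0.16, limma adjusted p = 0.3301).

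Of the docking factors, Pex14 was at 10.7 to 11.99 FPKM in WT and 11.8 to 13.9 FPKM in MG53-TG (log2 fold change 0.11, SE 0.10, limma adjusted p = 0.361), though it passed under the median-of-ratios scaling and quantile normalization, at limma adjusted p of 0.0321 and 0.0324, and its sign turned with end events alone (log2 fold change -1.44). For Pex14, 25.2% of its 50-base stretches are shared with Gm17029, so its level is uncertain to that extent. Pex13 was at 3.95 to 7.31 FPKM in WT and 4.35 to 8.80 FPKM in MG53-TG (log2 fold change 0.08, SE 0.23). Of the ubiquitin ligase subunits that mark the receptor for recycling, Pex2 was at 8.60 to 19.8 FPKM in WT and 12.9 to 15.3 FPKM in MG53-TG (log2 fold change 0.01, SE 0.23), and Pex10 at 4.46 to 7.62 FPKM in WT and 3.37 to 6.56 FPKM in MG53-TG (log2 fold change -0.05, SE 0.21). Of the factors that pull the receptor back out of the membrane, the ATPase Pex6 was at 10.05 to 11.1 FPKM in WT and 9.21 to 10.5 FPKM in MG53-TG (log2 fold change -0.10, SE 0.09), and its membrane anchor Pex26 at 5.32 to 7.34 FPKM in WT and 4.09 to 7.14 FPKM in MG53-TG (log2 fold change -0.20, SE 0.16). The signs of Pex6 and Pex10 turned to positive under both scalings. These also shifted the median of all genes up, by 0.16 and 0.11, so the turns are not read as a result about these genes. A p that misses the threshold does not show that these levels are equal, and the SE of 0.09 to 0.23 limits what could be seen.

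A further 43 peroxisomal genes outside the list were read for context, of which 31 passed the filter. Of these, 15 were called higher (48.4%) and 5 lower (16.1%), beside 15.5% and 28.9% of all genes. With end events alone 25 were tested, of which 8 were called higher and 4 lower. By type, 12 of 22 enzymes and transporters were called higher and 4 lower, and 3 of 9 membrane, division and peroxin genes were called higher and 1 lower. The 5 with the largest called change were Far2, given above, Dao, an oxidase of D-amino acids (log2 fold change 2.58, SE 0.25), Acad11, an acyl-CoA dehydrogenase (2.27, SE 0.16), Pipox, an oxidase of pipecolic acid and sarcosine (1.75, SE 0.14), and Gstk1, a glutathione transferase (1.68, SE 0.59, with overlapping groups), at limma adjusted p of 8.87e-05, 1.58e-05, 3.02e-05 and 0.0454 for the last 4. Dao was at 1.65, 1.20, 1.15 and 0.245 FPKM in WT and at 12.8, 13.6, 8.76 and 9.04 FPKM in MG53-TG, and here samples 1 and 2 were the high ones. The 5 called lower, named after their values were seen, were Far2, Paox, a polyamine oxidase, Mvk and Pmvk, kinases of the mevalonate pathway, and Mpv17l, a membrane protein.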

How the data were processed

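RNA of 8 organoid samples, 4 per genotype, was sequenced. The submitters' processing notes name cutadapt 1.9.1, HISAT2 2.0.1, HTSeq 0.6.1, DESeq2 and the build mm10. The authors deposited 1 table per sample of FPKM values for 20 types of transcript event, and the tool that made the events is not given in the sources used here. No read counts were used, since whole reads could not be recovered from the FPKM values, so the depth and any interval from it are unknown. Start events summed to 269094 to 284330 FPKM per sample.

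A gene's level was the sum of its start events, or of its end events where their mean was higher (5 of the 34 genes: Scp2, Acot8, Ephx2, Pex5 and Pex19). Each event was given to a GENCODE vM21 gene (GRCm38) whose exon boundaries it matched, because neighbouring genes shared identifiers in the tables. Of the start and end events, 85.3% stayed with their own identifier, 4.60% moved to another gene, 4.29% were kept by overlap and 5.81% were not placed. Of the 34 genes, 30 were found by identifier, while Crot, Ech1, Decr2 and Acot4 were found by coordinates only. A gene absent from 1 sample was missing there if the median of the rest of its group was at least 0.5 FPKM, and otherwise 0.

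Genes whose mean reached 0.5 FPKM were fitted in limma 3.58.1 (R 4.3.3) with trended empirical Bayes moderation on log2(FPKM + 1), using both groups and no covariate, with two-sided tests. P-values were adjusted by the Benjamini-Hochberg method over all 10958 genes, with a threshold of 0.05. Tables were handled in Python 3.11.15 with pandas 2.3.3, numpy 2.4.6 and scipy 1.17.1. Tested on simulated data of 10611 genes, the fit recovered 66.5% of 200 genes with a log2 change of 1. The simulation gave both groups the same spread and changed only those 200 genes, while 4862 genes were called here. That share therefore does not measure recovery in these data. Promoter windows came from RefSeq tables of GRCm38.p6. Alternatives were a pseudocount of 0.1, no filter or a filter of 2 FPKM, other scalings, a replicate block, sample weights, leaving out each sample, start or end events alone, identifiers alone, and absent values as 0.

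All 34 genes are named, by role. Of the other peroxisomal genes, the 5 with the largest called change are named, and exceptions are marked. Some genes of that list are not reported here and were left out of its counts, though they stayed in the fit. The genes and lists were chosen with earlier results of these data known. Protein sequences were not used here.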

Additional observations from a re-analysis of the deposited data

Results flagged for a closer look

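Among 68 groups of 4 samples (34 genes in 2 genotypes), 3 held a sample that stood apart from the others by a gap test with a 5% error rate, where chance gives about 3.4. The level of Decr2 was 1.14 FPKM in WT sample 4 and 8.34 to 9.63 FPKM in the other WT samples. Pex13 was at 3.95 FPKM in WT sample 1 and at 6.85 to 7.31 FPKM in the other WT samples. For Pex16, MG53-TG sample 2 had 9.31 FPKM, and the rest of its group had 14.2 to 14.9 FPKM.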

How the results depend on the processing

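Of 665 values of the 34 genes under the alternatives, 601 kept their direction and their side of the threshold, 39 lost the call, 9 gained it and 16 changed sign, and 20 genes kept both under every alternative run for them. Median-of-ratios scaling gave a median of 1.25 for the enzymes and transporters (1.07 as reported), and 7 Pex genes called higher (4 as reported) with a median of 0.29 (0.11 as reported), and quantile normalization gave 7 and 0.28. The share of all calls that were higher moved from 34.9% to 49.9% and 44.6% under these scalings, with 2217 higher and 2222 lower under the first and 2058 and 2557 under the second. Of all genes tested, 20.2% and 18.8% were called higher under them, with medians of -0.008 and -0.052. Start events alone left 2 Pex genes called higher. End events alone left 10 of 12 enzyme and transporter genes tested called higher and 1 lower, with a median of 0.90, and 8 of 25 other peroxisomal genes tested called higher (15 of 31 as reported), and they gave a difference in share of 3.54 points for Acaa1b (40.2 as reported). Identifiers alone gave an enzyme median of 0.72, as did the annotated first exon alone for Ech1 and Decr2, which was chosen after seeing the data.

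Leaving out 1 sample at a time gave 15 to 17 enzymes and transporters called higher and 2 to 3 lower with medians of 0.98 to 1.17, 2 to 5 Pex genes called higher (2 without WT sample 2 and without MG53-TG sample 4) with medians of 0.067 to 0.24 (without MG53-TG sample 2 and sample 3), and 12 to 15 other peroxisomal genes called higher. The log2 fold change then ran from -0.13 to 0.13 for Pex10, -0.094 to 0.24 for Pex13, -0.22 to 0.15 for Pex2 and -0.047 to 0.83 for Acox2. Pex10 was at 0.11, 0.12 and 0.019 with median-of-ratios scaling, quantile normalization and sample weights, Pex6 at 0.074 and 0.078 with the scalings, and Pex14 at -1.44 with end events alone. Median-of-ratios scaling and quantile normalization also shifted the median of all genes up, by 0.16 and 0.11. The cause of the other shifts was not tested.

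Same-numbered samples of the 2 groups did not deviate together (r from -0.05 to 0.09 across genes, 0 over 0.1), and 2 of 8 samples correlated best with their own number, so the numbers were not taken as pairs. With a replicate block, 4417 genes were called, of which 4219 were also called without it, and 17 enzymes and transporters were higher and 2 lower, 3 Pex genes higher, and 13 other peroxisomal genes higher and 5 lower. Unknown depth and missing starts (Acox2 in WT sample 3) limit what the values of low genes can show, by an amount that was not measured.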
